A study of Mus musculus with 6 samples.

Results

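The genes that set and spread the heartbeat were examined here in captured, methylated DNA of the mouse ventricle. They are Hcn2 and Hcn4, Scn10a and Scn4b, and Gja1, Gja5 and Gjc1. Their regions are all rows of the count table whose symbol is exactly that of a member. Of the 7 genes, 6 had at least 1 row, which gave 34 regions of 213957 in the whole table. Gjc1 had no row and is absent from every count below. The 34 regions comprised 19 at Scn10a, 7 at Hcn4, 5 at Hcn2 and 1 each at Scn4b, Gja1 and Gja5. All 34 are peaks, the short regions in which captured DNA was enriched, as opposed to the longer stretches between them.

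The samples are ventricles of male C57BL/6 mice at postnatal day 1 (P1) and day 14 (P14), with 3 libraries at each age, described in the labels as biological replicates, with no statement on pooling of animals; p-values measure the spread between these libraries. The labels name the left ventricle as tissue, while the tissue protocol describes whole ventricles with the septum, from which the atria had been removed. The sinus node lies in the atrial wall. Sonicated DNA was enriched with a methyl-CpG binding domain kit and sequenced, so a value is a read count that grows with the number of methylated CpGs on a fragment, not a methylation level per site. Ventricle holds many cell types, and a change within cells cannot be told apart from a change in their mix. Captured DNA does not measure expression, so the tissue label could not be checked against marker genes.

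HCN channels open on hyperpolarisation and carry the inward pacemaker current of nodal cells. They are more widespread in the fetal ventricle than in the adult one. Voltage-gated sodium channels drive the upstroke of the action potential in working muscle and in the Purkinje fibres, and connexins form the gap junctions through which it passes from cell to cell. DNA methylation at a CpG-rich promoter generally accompanies a silent gene, while methylation within a gene body is common in active genes too.

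None of the 6 genes had a peak at its start site. RefSeq promoter windows (GRCm38.p6), which run from 250 bases before to 50 bases after a start, were found for these 6 genes. All 6 windows lay in stretches between peaks. Among all 32817 windows 7.53% overlapped a peak, so a window outside peaks is the usual case. The share was 7.23% for windows with up to 5 CG dinucleotides, 16.4% for 6 to 15 and 1.61% for 16 or more. 3 windows are printed because they run from CpG-rich to CpG-poor, with each CG in capitals, 5′ to 3′ on the strand of the gene. Hcn4 (chr9:58822699-58822998, plus strand) had the most, Scn4b (chr9:45138374-45138673, plus strand) lay closest to a peak of its gene, and Gja1 (chr10:56377050-56377349, plus strand) was among the poorest.
Hcn4: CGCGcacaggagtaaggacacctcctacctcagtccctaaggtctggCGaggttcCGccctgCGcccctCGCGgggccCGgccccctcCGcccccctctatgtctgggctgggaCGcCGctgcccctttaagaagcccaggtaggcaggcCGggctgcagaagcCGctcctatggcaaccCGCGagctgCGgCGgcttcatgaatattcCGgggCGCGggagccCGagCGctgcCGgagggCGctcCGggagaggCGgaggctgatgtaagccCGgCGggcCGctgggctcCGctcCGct
Scn4b: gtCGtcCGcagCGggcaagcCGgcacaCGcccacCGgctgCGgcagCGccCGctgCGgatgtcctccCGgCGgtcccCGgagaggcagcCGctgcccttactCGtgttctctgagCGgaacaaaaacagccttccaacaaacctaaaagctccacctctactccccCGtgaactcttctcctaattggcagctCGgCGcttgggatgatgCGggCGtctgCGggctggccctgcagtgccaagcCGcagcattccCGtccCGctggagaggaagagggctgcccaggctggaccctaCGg
Gja1: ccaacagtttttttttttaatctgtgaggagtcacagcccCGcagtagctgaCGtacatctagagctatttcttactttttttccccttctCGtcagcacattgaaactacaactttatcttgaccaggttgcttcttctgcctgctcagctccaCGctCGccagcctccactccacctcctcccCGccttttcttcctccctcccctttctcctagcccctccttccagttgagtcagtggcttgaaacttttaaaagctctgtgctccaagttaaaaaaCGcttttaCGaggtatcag
The motif searched was CG, which reads the same on both strands and which 94.6% of all windows hold. Hcn4 held 31 CG in 300 bases, a number that 10.6% of all windows reach. Scn4b and Hcn2 held 26 each, reached by 16.9% of windows. Scn10a held 11, Gja1 8 and Gja5 7, near the median of 7. The nearest peak of the gene lay 1304 bp from the Scn4b window, 7525 bp from that of Hcn2 and 10161 bp from that of Gja1. The distance was 17327 bp at Hcn4, 18011 bp at Gja5 and 26710 bp at Scn10a. The stretches that hold these windows were 13.0 to 36.0 kb long, so a count over them says nothing of the window alone.

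**Figure D1:**
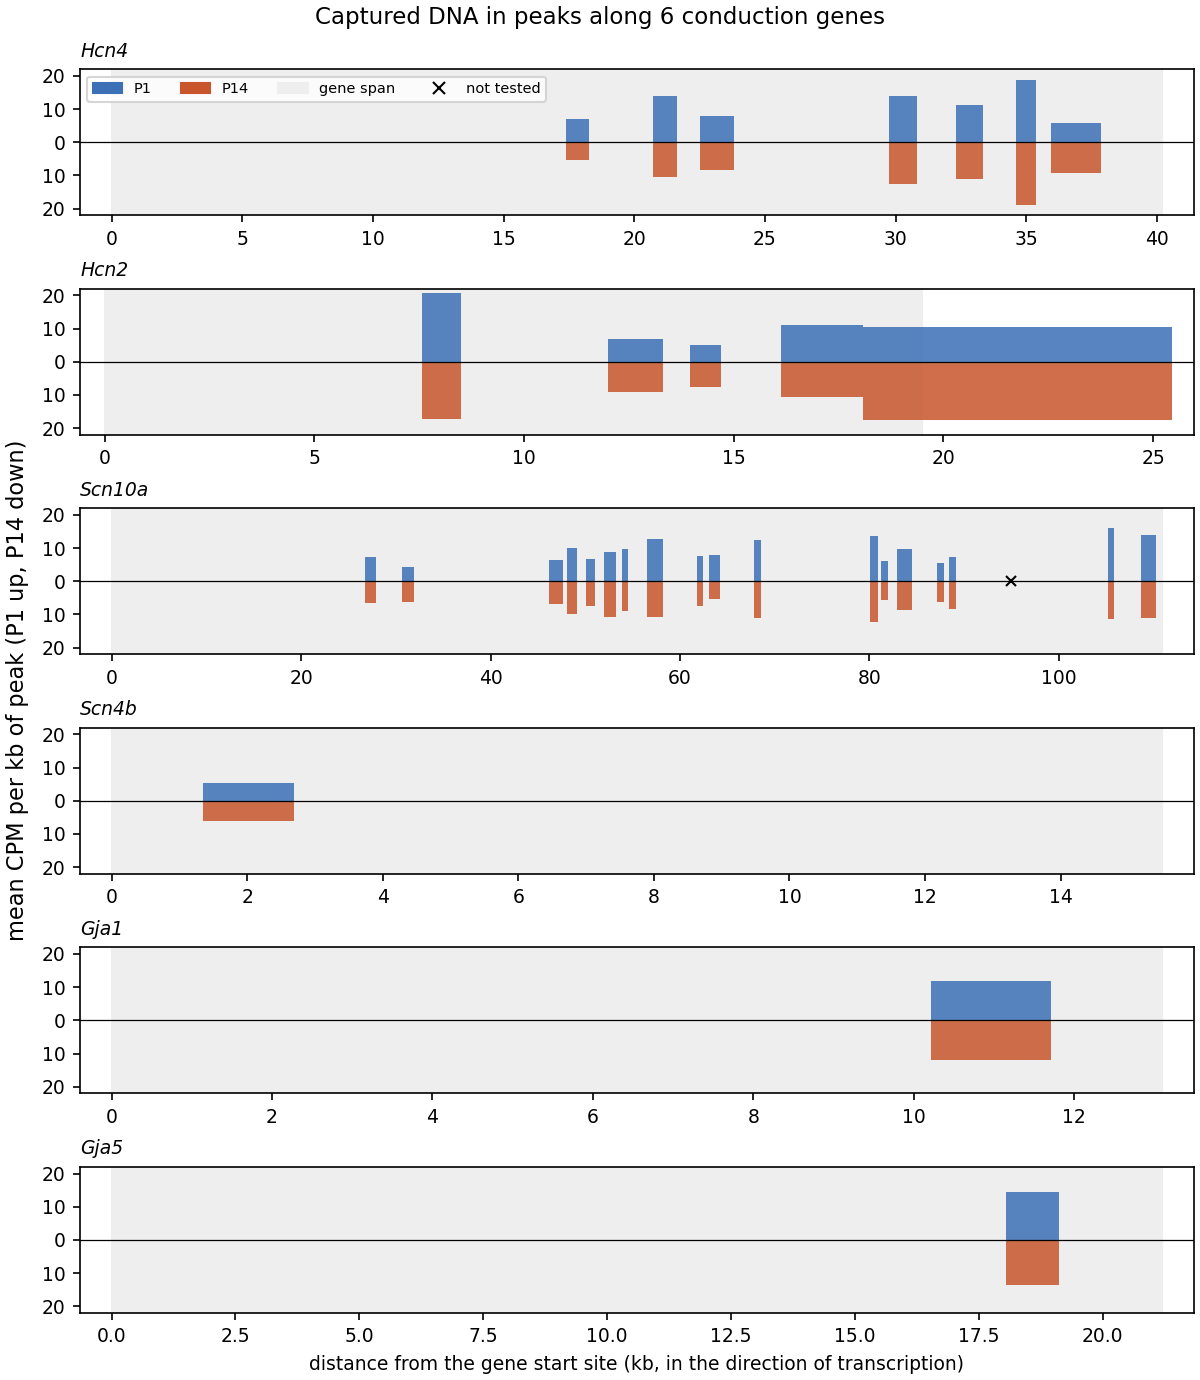
Position and level of the member peaks along 6 genes. The x axis is the distance from the start site in kb, grey marks the RefSeq gene span, bar width is peak width, and bars give mean CPM per kb of peak over 3 libraries, P1 upward and P14 downward; the cross marks the Scn10a peak that was not tested. Peak centres lie 2.02 kb or more from the start, and the broad Hcn2 peak runs beyond the end of the gene.

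The centres of 33 of the 34 peaks lay within the gene span, 23 of them past its middle, and that of the last Hcn2 peak lay beyond the end of Hcn2. Scn10a spans 110.9 kb of chromosome 9 (119608456 to 119719322), and its 19 peaks had their centres from 27.35 to 109.47 kb after the start. Only 3.03% of the 18038 genes named in the table have as many peaks. Per length the gene is unremarkable, with 1.71 peaks per 10 kb against a median of 1.44 over 14749 genes with a RefSeq span. Hcn4 (chromosome 9, 58822949 to 58863175) had 1.74 peaks per 10 kb, centred from 17.82 to 36.9 kb after the start. Hcn2 (chromosome 10, 79716634 to 79736108) had 2.57 per 10 kb, a density that 29.6% of genes reach. The Gja1 peak (chromosome 10, 56387510 to 56389003) was centred at 83.5% of the gene length and the Gja5 peak (chromosome 3, 97050462 to 97051526) at 87.6%. Among the genes with a single peak, that of Scn4b (chromosome 9, 45139977 to 45141305) was the exception, centred 2.02 kb after the start, at 13.0% of the gene length. The annotation used here gives gene spans without exons, so peaks were not assigned to exons, introns or UTRs. The Gjc1 span (chromosome 11, 102799477 to 102819686) lay wholly inside a 38.4 kb stretch between peaks, which held 309, 255 and 262 reads in P1 replicates 1 to 3 and 301, 255 and 224 in P14 replicates 1 to 3.

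The libraries held 16284216 to 21512072 reads, with a median of 14 to 48 per peak. The share of reads that fell in peaks was 12.5% ± 0.907 in P1 libraries and 22.2% ± 7.9 in P14 libraries (SD, n = 3), with an exact two-sided permutation p of 0.1, the smallest that 3 against 3 can give. P14 replicate 1 stood apart with 31.3%, and the P14 mean without it was 17.6%. P1 replicate 1 had 2396 peaks without a read, against 30 and 37 in the other P1 libraries. Because of the first difference changes are given on 2 scales. CPM are counts per 1000000 reads in peaks, with TMM factors, and the log2 change within peaks asks whether a peak moved against other peaks. The fit over all regions asks whether a peak moved against all tested regions, which are peaks and stretches. Of the 209063 regions tested there, 96799 were peaks. The reference of that fit lay between the 2 kinds, with a median log2 change of 0.725 over peaks and -0.291 over stretches. A change in that fit is thus not a change against the stretches alone.

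Neither scale gave a called difference between P1 and P14 at any peak of these genes. Of the 34 regions, 33 passed the filter on low counts. Within peaks, 0 of 33 passed the threshold of 0.05 after Benjamini-Hochberg adjustment (edgeR, quasi-likelihood), where 0.105% of 96799 peaks were called higher and 2.4% lower at P14. An unadjusted p under 0.05 was reached by 2 of the 33, against 7.57% of all peaks, and DESeq2 also called 0 with 2 unadjusted. In the fit over all regions 0 of 33 were called, where 0 of 209063 regions were called higher and 0 lower (0% each). There 8 of the 33 had an unadjusted p under 0.05, against 30.6% of all peaks, and DESeq2 called 0 with 5 unadjusted. Within peaks 15 of the 33 were above 0 and 18 below (49.4% of all peaks were above), with a median log2 change of -0.05 against -0.005 over all peaks, from -0.51 to 0.74. In the fit over all regions all 33 were above 0, as were 94.9% of all peaks and 54.7% of all regions, with a median of 0.68 against 0.73 over all peaks and -0.29 over the stretches. Without P14 replicate 1, 28 of the 33 were above 0, with a median of 0.38. The members thus stood near the other peaks on both scales. Standard errors of the member changes within peaks ran from 0.24 to 0.64 on the log2 scale, so changes of that size lay within the replicate error. Larger changes could be missed too. In simulated counts with known changes, 15 of 100 changes of 2-fold were called within peaks and 0 of 100 over all regions. At 4-fold these were 65 and 59 of 100. The lack of a call at a member thus does not exclude a 2-fold change.

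**Figure D2:**
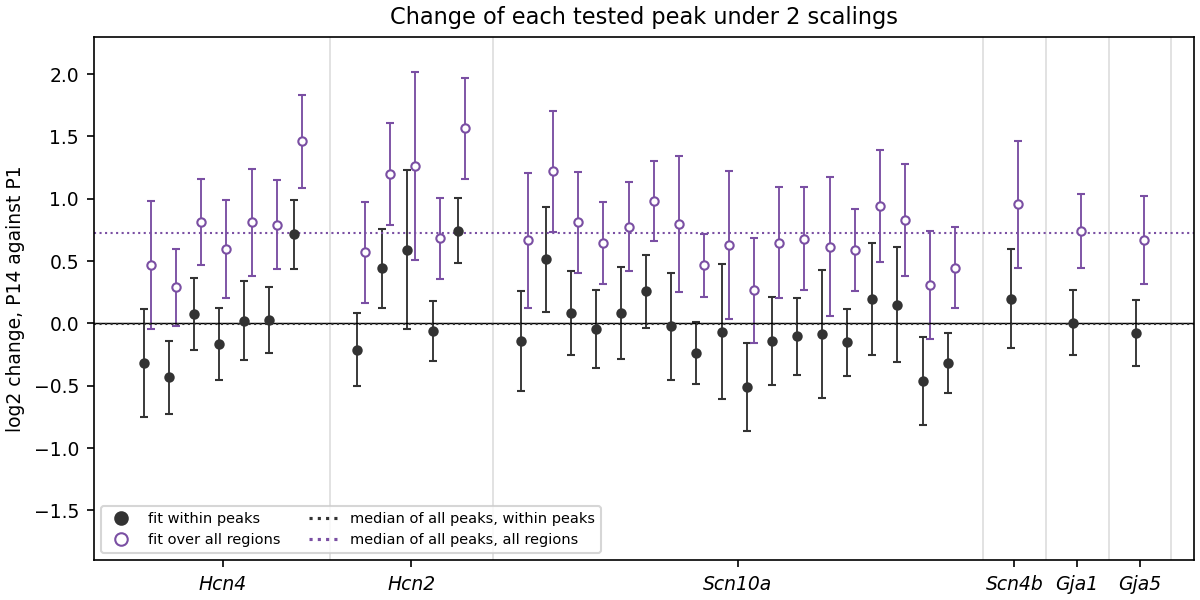
Log2 change from P1 to P14 of the 33 tested peaks, ordered from the start site within each gene, with standard errors. Filled points are the fit within peaks and open points the fit over all regions; dotted lines are the medians of all peaks in each fit. Filled points scatter from -0.51 to 0.74 around 0, and open points lie above 0 at all 33.

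Hcn4, the main pacemaker channel of the sinus node, had 7 peaks, and the last of them differed most between ages. This peak (ENSMUSG00000032338, chromosome 9, 58858879 to 58860814) lies at 91.7% of the gene length and is 1936 bp wide. It held 15, 31 and 25 reads in P1 replicates 1 to 3 and 150, 65 and 46 in P14 replicates 1 to 3. Scaled within peaks these were 7.75, 14.1 and 11.5 CPM at P1 and 20.9, 16.9 and 16.7 CPM at P14. The ages did not overlap, and P14 replicate 1 was the highest library. The mean was 11.1 ± 3.17 CPM at P1 and 18.2 ± 2.38 at P14 (SD, n = 3; log2 change 0.71, SE 0.27, adjusted p = 0.31 in edgeR's fit within peaks). It had the largest mean and the smallest p of the Hcn4 peaks. In the fit over all regions its log2 change was 1.46 (SE 0.37, adjusted p = 0.214). Without P1 replicate 1 the change within peaks was 0.54, and without both replicates 1 it was 0.41.

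The other 6 Hcn4 peaks overlapped between ages, with log2 changes within peaks from -0.43 to 0.08. Their means ran from 6.1 to 15.2 CPM at P1 and from 4.75 to 14.5 CPM at P14. Per length the densest was the sixth peak from the start, with 18.8 CPM per kb at both ages, where the median peak has 8.18 at P1 and 8.04 at P14. That peak sits next to the seventh, the one with the lowest P1 density of the gene at 5.73 CPM per kb. Summed over its 7 peaks, Hcn4 had P1 reads of 157, 185 and 175 and P14 reads of 694, 285 and 213. Scaled over gene sums these were 104 ± 3.39 CPM at P1 and 107 ± 12.5 at P14 (SD, n = 3). For the gene as a whole this was a log2 change of 0.05 (SE 0.14, adjusted p = 0.977 in edgeR's fit over gene sums).

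Hcn2, the HCN channel of ventricular muscle and brain, was the gene whose sum came closest to the threshold, and that rested on a peak it shares with Polrmt. Summed over 5 peaks it held 266, 336 and 222 reads in P1 replicates 1 to 3 and 1806, 605 and 384 in P14 replicates 1 to 3. In CPM over gene sums these were 169, 193 and 132 at P1 and 313, 203 and 187 at P14. P14 replicate 1 was far above the rest, and P1 replicate 2 lay above P14 replicate 3, so the ages overlapped, as they did at the other 5 genes. Among all gene sums 7.14% had P14 libraries all above P1 and 9.43% all below. The log2 change was 0.52 (SE 0.16, adjusted p = 0.0932 in edgeR's fit), where 0.613% of 17119 gene sums were called higher and 2.58% lower, and 0 of the 6 genes were called. DESeq2 called 0 of the 6 as well. With either tool 1 of the 6, Hcn2, had an unadjusted p under 0.05, against 13% of all gene sums in edgeR's fit. Without P14 replicate 1 the Hcn2 change was 0.25, and without P14 replicate 3 it was 0.63 and passed (adjusted p = 0.0364 in edgeR's fit). In that last setting 138 of 17252 gene sums were called higher and 424 lower. With only regions that the table gives to 1 gene, chosen after seeing the data, the Hcn2 change was 0.07 (SE 0.18, adjusted p = 0.969).

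The shared peak (chromosome 10, 79734718 to 79742099) is 7.38 kb wide, a width that 0.0444% of tested peaks reach. Only 18.8% of it lies in the Hcn2 span and 80.9% in that of Polrmt, the gene of the mitochondrial RNA polymerase. It held 160, 191 and 138 reads in P1 replicates 1 to 3 and 1357, 404 and 255 in P14 replicates 1 to 3, or 56.8% to 75.1% of the reads in Hcn2 peaks. Scaled within peaks it stood at 82.7, 86.6 and 63.5 CPM at P1 and 189, 105 and 92.6 CPM at P14. The ages did not overlap, and replicate 1 was again the highest P14 library. The log2 change was 0.74 (SE 0.26, adjusted p = 0.21), and 4.09% of all peaks changed by as much in either direction. In the fit over all regions it was 1.56 (SE 0.40, adjusted p = 0.214). Without P14 replicate 1 the values were 0.37 within peaks and 0.85 over all regions, and the second passed (adjusted p = 0.0406), the 1 called member peak in that setting, where 0.122% of all regions were called higher and 0.847% lower.

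The 4 peaks inside Hcn2 all overlapped between ages. The first (chromosome 10, 79724208 to 79725119) was the densest of all member peaks at P1, with 20.6 CPM per kb. It had P1 reads of 49, 43 and 25 and P14 reads of 145, 60 and 31, which is 18.8 ± 6.94 against 15.7 ± 4.49 CPM (SD, n = 3; log2 change -0.21, SE 0.29). The second (79728638 to 79729949) had P1 reads of 20, 24 and 12 and P14 reads of 101, 45 and 27 (log2 change 0.44, SE 0.32).
The third (79730587 to 79731325) was thin and uneven, with 0, 19 and 5 reads in the P1 libraries and 33, 27 and 15 in the P14 ones. Its P1 value thus rested on replicate 2, and its log2 change of 0.59 (SE 0.64) became 0.05 without P1 replicate 1 and 2.21 without P1 replicate 2. The fourth (79732753 to 79734711) had P1 reads of 37, 59 and 42 and P14 reads of 170, 69 and 56 (log2 change -0.06, SE 0.24). All 4 had an adjusted p of 1 within peaks, and the changes fell on both sides of 0. In the fit over all regions the changes of peaks 1 to 4 were 0.57, 1.20, 1.26 and 0.68 (adjusted p 0.214 or more).

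**Figure D3:**
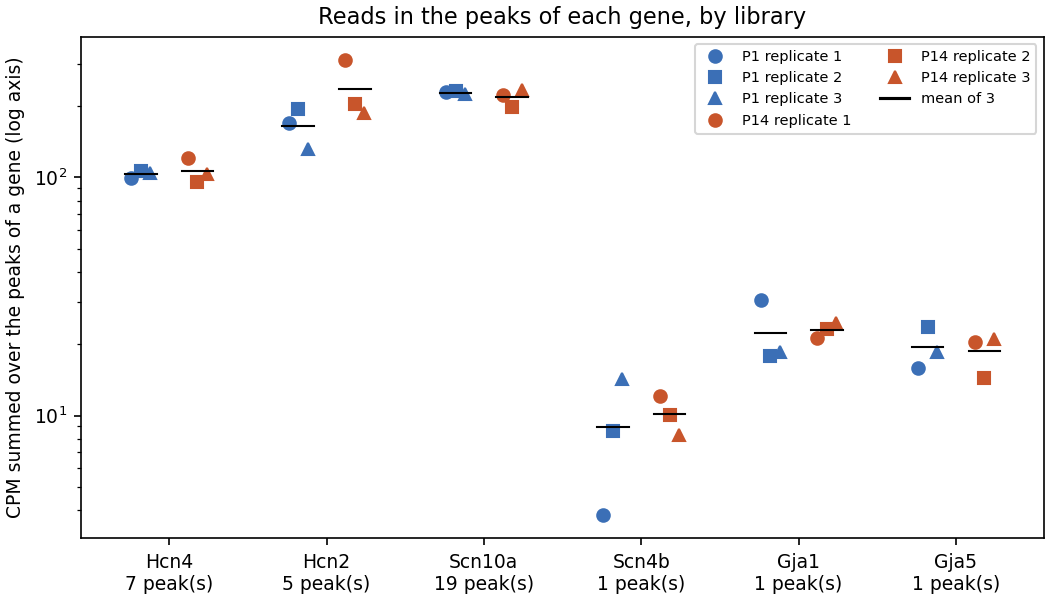
CPM summed over the peaks of each gene, on a log axis, for each of 6 libraries, with bars at the mean of 3. P1 and P14 overlap at all 6 genes; Hcn2 in P14 replicate 1 lies highest at 313 CPM, and Scn4b in P1 replicate 1 lowest at 3.81 CPM.

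Scn10a, a sodium channel gene known from sensory neurons, carried 19 of the 34 member peaks and had the smallest standard error in gene sums. Summed over 19 peaks it had P1 reads of 359, 400 and 375 and P14 reads of 1286, 589 and 477. In CPM over gene sums these were 228, 230 and 224 at P1 and 223, 198 and 233 at P14. Of the 6 sums 4 were above 0 in log2 change, against 51.8% of all gene sums. The Scn10a log2 change was -0.06 (SE 0.11, adjusted p = 0.945 in edgeR's fit). All 18 tested peaks (ENSMUSG00000034533) overlapped between ages, 6 above 0 and 12 below, from -0.51 to 0.51. Means ran from 4.1 to 22.6 CPM at P1 and from 4.56 to 19.4 at P14.

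The Scn10a peak with the largest mean (119660776 to 119662560) had P1 reads of 50, 54 and 38 and P14 reads of 115, 74 and 63, or 22.6 ± 4.48 against 19.4 ± 3.42 CPM (SD, n = 3, log2 change -0.24, SE 0.25), and its change over all regions was 0.47 (SE 0.25). The peak with the smallest p (119654780 to 119655961) had P1 reads of 23, 14 and 21 and P14 reads of 56, 22 and 15, or 9.3 ± 2.79 against 6.33 ± 1.29 CPM (SD, n = 3). Its log2 change was -0.51 (SE 0.35, adjusted p = 1), and in the fit over all regions it was 0.27 (SE 0.42), the smallest of the 33. The peak left out by the filter (119623842 to 119624276) was 435 bp wide and had P1 reads of 6, 2 and 5 and P14 reads of 31, 9 and 9. The peak nearest the end of the gene (119608750 to 119610379) was about as strong as the one with the largest mean at P1, with 22.6 ± 2.56 CPM. It stood at 17.8 ± 3.34 CPM at P14 (SD, n = 3, log2 change -0.32, SE 0.24).

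Scn4b encodes a beta subunit that binds sodium channel alpha subunits and alters their gating. Its peak (ENSMUSG00000046480) held 6, 15 and 24 reads in P1 replicates 1 to 3 and 70, 30 and 17 in P14 replicates 1 to 3. In CPM these were 3.1, 6.8 and 11.04 at P1 and 9.77, 7.81 and 6.18 at P14, so that the P1 libraries enclosed the P14 ones. The log2 change was 0.20 (SE 0.40, adjusted p = 1 within peaks), the largest standard error of the 3 genes with 1 peak. Without P1 replicate 1, its lowest library, the change was -0.11. Over all regions it was 0.96 (SE 0.51, adjusted p = 0.244).

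Gja1 encodes the main connexin of working ventricular muscle. Its peak (ENSMUSG00000050953) had P1 reads of 48, 31 and 31 and P14 reads of 122, 69 and 50. These were 24.8, 14.1 and 14.3 CPM at P1 and 17.0, 17.96 and 18.2 CPM at P14. Replicate 1 was the highest P1 library and lay above all P14 libraries, while the other P1 libraries lay below them. The mean was 17.7 ± 6.15 CPM at P1 and 17.7 ± 0.606 at P14 (SD, n = 3; log2 change 0.007, SE 0.26, adjusted p = 1 within peaks). Without P1 replicate 1 it was 0.33. Over all regions the change was 0.74 (SE 0.30, adjusted p = 0.214).

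Gja5 encodes the connexin of the atria and the fast-conducting His-Purkinje fibres. Its peak (ENSMUSG00000057123) had P1 reads of 25, 41 and 31 and P14 reads of 118, 43 and 43. In CPM these were 12.9, 18.6 and 14.3 at P1 and 16.47, 11.2 and 15.6 at P14, with the ages interleaved. The means were 15.3 ± 2.96 and 14.4 ± 2.83 CPM (SD, n = 3; log2 change -0.08, SE 0.27, adjusted p = 1 within peaks). Over all regions the change was 0.67 (SE 0.35, adjusted p = 0.243). Per length the Gja5 peak was the densest of the peaks at genes with a single one, with 14.3 CPM per kb at P1, followed by Gja1 with 11.9 and Scn4b with 5.25.

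Among the 33 tested peaks, 2 had P14 libraries all above P1 libraries, where 4.85% of all peaks did, and 0 had them all below, where 7.01% did. P14 replicate 1 was the highest P14 library in CPM at 19 of the 33, against 34.5% of all peaks. Without it, 0 of the 33 had an unadjusted p under 0.05 within peaks, against 6.58% of all peaks.

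Set against the stretches that touch them, a measure that needs no scaling between libraries, the peaks of all 6 genes were on average denser at P14, as were those of the median named gene. The ratio of read density in peaks to that in the touching stretches had a median over 18003 named genes of 1.97, 2.29 and 2.12 in P1 replicates 1 to 3 and 5.57, 3.29 and 3.0 in P14 replicates 1 to 3. Peaks that touch no stretch are left out of this ratio. At Hcn4, over 6 of its 7 peaks, it was 2.09, 3.08 and 2.32 against 7.2, 3.78 and 3.25. The Hcn4 peak left out is the sixth from the start, the densest of that gene per length. At Hcn2 it was 2.19, 3.08 and 2.18 against 8.62, 4.58 and 3.91. The ages did not overlap at Hcn4, at Hcn2 or in the median of all genes. How many of the 18003 genes had ages without overlap was not counted, so a lack of overlap in this ratio does not set a gene apart. The Hcn2 value includes the broad peak shared with Polrmt. Over the other 4 Hcn2 peaks, a choice made after seeing the data, it was 2.40, 3.72 and 2.48 against 6.71, 4.51 and 3.82.
At Scn10a, over 18 of its 19 peaks, it was 1.82, 1.96 and 1.7 against 4.14, 2.48 and 2.36, again without overlap. At Gja5 it was 3.01, 5.11 and 3.66 against 10.5, 4.11 and 4.81, and at Scn4b 0.792, 1.6 and 2.83 against 4.33, 2.85 and 2.0, both with overlap. At Gja1 it was 4.03, 3.02 and 2.55 against 15.6, 5.61 and 5.94, without overlap and with the highest ratios of the 6 genes at P14 in all 3 libraries. This ratio also depends on the stretches. The longer one at Gja1 held 7.19, 7.29 and 7.78 unscaled reads per kb at P1 and 5.46, 7.9 and 5.46 at P14. The shorter one held 10.81, 5.35 and 9.44 at P1 and 4.32, 9.44 and 6.26 at P14. The mean ratio at P14 was 1.9 times that at P1 at Hcn4, 2.3 times at Hcn2 (1.75 without the shared peak), 1.64 at Scn10a, 1.65 at Gja5, 1.75 at Scn4b and 2.83 at Gja1, against 1.85 for the median gene. P14 replicate 1 was the highest library at all 6 genes. Without it the P14 mean at Gja1 was 5.78 in place of 9.06, against 3.2 at P1.

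**Figure D4:**
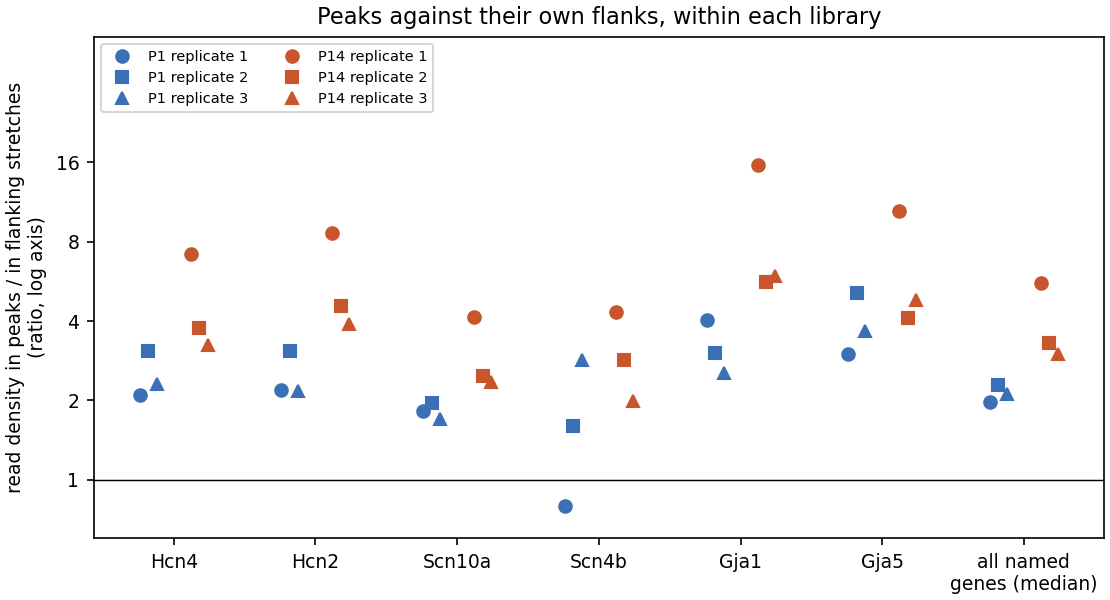
Ratio of read density in the peaks of a gene to that in the stretches touching them, on a log axis, for each of 6 libraries and for the median of 18003 named genes. Peaks that touch no stretch are left out. P14 replicate 1 is the highest library at all 6 genes and in the median, from 4.14 at Scn10a to 15.6 at Gja1; only Scn4b in P1 replicate 1 lies below 1.

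The pattern of the shared Hcn2 peak over the 6 libraries was most like that of peaks at Pcdh19, Cd163l1 and Zfp668, among 66050 named peaks. The root mean square difference of their centred log2(CPM + 1) was 0.05, 0.06 and 0.07.

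Other genes of cardiac conduction, 81 symbols in 7 lists, had 61 named in the table and 408 tested peaks. Of these, 2 were called higher and 7 lower at P14 within peaks, or 2.21%, against 2.51% of all peaks, with a median log2 change of -0.005. Scaled to the reads between peaks, 44 were called higher and 0 lower, where 7.34% of all peaks were called higher and 0.0527% lower. The other sodium channel genes had 0 of 100 called and the other connexins 0 of 19. Pacemaker calcium and potassium channels had 0 of 110 called and conduction system markers 0 of 40. With the scaling to reads between peaks these 4 lists had 5, 4, 14 and 8 called higher and 0 lower, in the order given. The smallest p in these 4 lists were at Scn3a (log2 change -1.71, SE 0.56, adjusted p = 0.142), Gjd4 (1.11, SE 0.34, adjusted p = 0.0999), Cacna1d (-2.10, SE 0.57, adjusted p = 0.0549) and Cpne5 (1.01, SE 0.37, adjusted p = 0.251), all in edgeR's fit within peaks. Called peaks lay in 2 of the 7 lists.

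Transcription factors of the conduction system had 2 peaks higher and 0 lower of 18, where 0.105% of all peaks were called higher and 2.4% lower. The 2 lay at Tbx2 and Tbx3, repressors of the working muscle programme in nodal tissue. Of the 17 genes in this list only 8 were named and so had peaks to test. Scaled to the reads between peaks, 6 of the 18 were called higher, where 7.34% of all peaks were. The Tbx3 peak (chromosome 5, 119680062 to 119681185) had P1 reads of 13, 9 and 8 and P14 reads of 132, 51 and 29 (log2 change 1.59, SE 0.35, adjusted p = 0.0272). The Tbx2 peak had a change of 1.46 (SE 0.33, adjusted p = 0.027). Genes of the intercalated disc, the junction where connexins sit, had 0 peaks higher and 7 lower of 116, where 2.4% of all peaks were lower, with a median log2 change of -0.13. Scaled to the reads between peaks, 6 of the 116 were called higher and 0 lower, with a median of 1.07. Of the 7, 4 lay at Ctnna3, an alpha catenin, 2 at Cdh2, the cadherin that joins heart muscle cells, and 1 at Dsg2, a desmosomal cadherin. The Ctnna3 peak with the smallest p (chromosome 10, 63649428 to 63650743) had P1 reads of 26, 25 and 31 and P14 reads of 5, 6 and 13 (log2 change -2.71, SE 0.50, adjusted p = 0.024). The Dsg2 peak had a change of -2.28 (SE 0.48, adjusted p = 0.0254). All 9 kept their direction without any 1 library. Without P14 replicate 1 or P14 replicate 2, 0 of the 9 passed, but there 0 of all 96919 and 98872 peaks passed too. Without P1 replicate 1, 3 of the 9 passed, where 80 of 99853 peaks were called higher and 702 lower. Without P1 replicate 2, P1 replicate 3 or P14 replicate 3, 5, 4 and 3 of the 9 passed. Over all peaks those settings called 49, 22 and 39 higher and 1454, 1654 and 667 lower. Without P1 replicate 1 a second Ctnna3 peak had a change of -1.26 in place of -2.20.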

How the data were processed

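Reads captured by a methyl-CpG binding domain were counted in 3 libraries at P1 and 3 at P14. The deposited values are whole-number counts for each region, unscaled. BWA, MACS, bedtools, edgeR 3.2.4 and the build GRCm38 (mm10) are named per the submitters' processing notes, with no role or order. How peaks were called and duplicate reads treated is not given in the sources used here.

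Lines that repeat a region (7567 of 221524) were collapsed to 213957 regions. No column says which regions are peaks. Touching regions were read as alternating between peak and stretch, with named regions as peaks. Chains without a name (56231 regions) were settled by read density and width, a rule that gave the same answer for 95.9% of regions settled by names. This gave 101290 peaks. All member regions are named. Starts in the table count from 0 and are printed plus 1.

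Ages were compared by edgeR 4.0.16 (R 4.3.3, quasi-likelihood F test) with TMM factors, a scaling that assumes most regions do not change. The default expression filter was used, the model held age alone, and p-values were adjusted by Benjamini-Hochberg at 0.05. Fits ran over 209063 regions, within 96799 peaks and on counts summed per gene symbol over 17119 genes. Each SE was taken as the log2 change over the square root of F. Scripts were tested on simulated data. DESeq2 1.42.0, limma-voom (limma 3.58.1), other scalings, no filter, a replicate block and left-out libraries were the alternatives.

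Shown in full are the regions of each gene with 5 or fewer, and otherwise the region with the smallest p and the one with the largest mean. Of the other conduction genes, regions past the threshold within peaks were named, at most 8 by p, with the smallest p of each list; 1 such result is not reported here. The last and the untested Scn10a peaks and the sixth Hcn4 peak were picked after their values were seen. For the member peak with the smallest p, the 3 named peaks nearest to it in centred log2(CPM + 1) were taken. The members, lists and rules were chosen with earlier results of these data known.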

Additional observations from a re-analysis of the deposited data

How the results depend on the processing

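No member peak was called in the fit over all regions or within peaks, and no member gene in gene sums. With a library left out, 0 to 1 member peaks were called higher over all regions and 0 to 1 member genes in gene sums, 0 higher within peaks, and 0 lower in any of the 3. Without both replicates 1, 1 member peak was called higher over all regions, the shared Hcn2 peak (0.84). Scaled to the reads between peaks, 2 member peaks (shared Hcn2 2.12, last Hcn4 1.94) and 2 gene sums (Hcn2 1.84, Scn4b 1.44) were called higher. In that scaling 7.34% of all peaks and 34.4% of all gene sums were called higher. Over all peaks the median change was then 1.18, and the member changes below 0 within peaks turned, to 0.91 and 0.76 at the 2 Scn10a peaks described, 1.15 at Gja5, and 1.09 and 1.17 at Hcn2 peaks 1 and 4 from the start, with gene sums of 1.13 at Scn10a and 1.15 at Gja5. Some changes turned in other settings too. With no TMM factor Gja5 was 0.07 and Hcn2 peak 4 0.08. Without both replicates 1 the strongest Scn10a peak was 0.01 and Scn4b -0.32 within peaks, Scn4b -0.30 and Hcn4 -0.08 in gene sums, and the Scn10a peak with the smallest p -0.07 over all regions. Leaving out 1 library, single peaks ranged within peaks from -0.39 to -0.09 and -0.71 to -0.28 (Scn10a), -0.11 to 0.69 (Scn4b), -0.12 to 0.33 (Gja1), -0.19 to 0.11 (Gja5), and at Hcn2 from -0.46 to 0.07, 0.19 to 0.63, 0.05 to 2.21, -0.17 to 0.13 and 0.37 to 0.95, and from 0.54 to 0.93 at the last Hcn4 peak. The Scn10a peak with the smallest p ranged from -0.22 to 0.47 over all regions. Gene sums ranged from -0.13 to 0.02 (Scn10a), -0.13 to 0.69 (Scn4b), -0.13 to 0.32 (Gja1), -0.18 to 0.11 (Gja5), 0.25 to 0.63 (Hcn2) and -0.06 to 0.14 (Hcn4). The cause was not tested.

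Counts over the whole table moved more. Over all regions DESeq2 called 44 higher and 2 lower, and leaving out 1 library gave 0 to 255 and 0 to 1773, without both replicates 1 2434 and 5146. Within peaks (102 and 2328) limma-voom called 4159 lower, no TMM factor 868 lower and named regions only 1349 lower. Scaled to the reads between peaks there were 7107 and 51, without both replicates 1 54 and 425, and without 1 library 0 to 80 and 0 to 1654, with 0 of both without P14 replicate 1 or 2. In gene sums (105 and 441) there were 5894 and 45 scaled to the reads between peaks, 21 and 85 without both replicates 1, 66 higher with regions of 1 gene only, and 3 to 138 and 52 to 427 without 1 library. With the replicate number as a block, 0 higher and 0 lower were called within peaks and 29 and 85 in gene sums, and no member. Deviations of same-numbered libraries within peaks had correlations of -0.0442, -0.044 and 0.025, and not every library was closest to its own number. These small values gave no sign of pairing by number, but they cannot settle whether same-numbered libraries shared a preparation. The filter within peaks and the regions of 1 gene only were added after seeing the data.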

Other observations

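Peaks at marker genes of cell types that ventricle could hold were counted in the same fit within peaks. Heart muscle markers had 0 of 43 tested peaks higher and 9 lower at P14, with a median log2 change of -0.009, where 0.105% of all peaks were called higher and 2.4% lower. Their 6 gene sums had 1 called higher and 1 lower, with a median of 0.49, of the other sign. Endothelial markers had 0 of 24 called (median -0.002), fibroblast markers 0 of 14 (-0.21), blood markers 0 of 11 (0.26), mural cell markers 0 of 26 (0.07), and nerve and glia markers 0 of 11 (0.29). Above 0 were 10 of the 11 nerve and glia peaks and 9 of the 11 blood peaks, against 2 of the 14 fibroblast peaks. Whether the mix of cells has a part in the values at conduction genes was not tested.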
